A study of Mus musculus with 6 samples.

Results

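The mitochondrial ribosomal protein genes were measured in hematopoietic stem cells (HSCs), the rare cells of the marrow from which every blood lineage is renewed. The members are the protein-coding rows of the deposited count table whose names start with Mrpl or Mrps and a digit. They are 76 of the 18368 rows, with 47 Mrpl genes of the large subunit and 29 Mrps genes of the small subunit, spread over 17 chromosomes. The libraries were made from total RNA of about 2000 HSCs sorted from the bone marrow of adult mice. 3 libraries came from Ramp1+/+ mice, called wild type (WT), and 3 from mice whose genotype is labelled Ramp-/- and whose titles read Ramp1 mutant (Mut). Ramp1 encodes the accessory protein that turns the receptor Calcrl into the receptor for the neuropeptide CGRP. The labels state neither which part of Ramp1 the allele removes nor whether each library had its own animal, and p-values here cover only the spread between the libraries.

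Mitochondria carry their own ribosome, which translates the few mRNAs of the mitochondrial genome into core subunits of the respiratory chain and the ATP synthase. Its rRNAs come from mitochondrial DNA, whereas all of its proteins are encoded in the nucleus, made in the cytosol and imported. Some of these proteins have counterparts in bacterial ribosomes and others were added in mitochondria. The small subunit reads the mRNA, and the large subunit forms the peptide bond and releases the chain at the inner membrane. Quiescent HSCs are known for low mitochondrial respiration and for a low rate of protein synthesis.

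The libraries held 22796771 to 26734561 counted reads. Members took 0.381% to 0.434% of them, and each member had between 59 and 3704 reads per library, with over 100 in every library for 75 of 76. All 76 passed the filter on low counts, among 14443 genes tested. Ramp1 separated the labels, at 91.4, 88.3 and 91.0 FPKM in the WT libraries and 3.53, 2.65 and 1.35 FPKM in the Mut libraries (FPKM, a level scaled by gene length and library size). The 10 stem cell markers were present in every library, Kit for example at 260 to 461 FPKM, and their median log2 fold change was 0.00. Y-linked reads were counted in replicate 1 of each group, 6527 in WT and 6137 in Mut, and at most 2 such reads in any of the other libraries. Sex is not in the labels.

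Large subunit genes had a median level of 34.7 FPKM over all libraries and small subunit genes one of 33.3 FPKM, so a typical gene lay at a similar level in both. The quartiles ran from 22.6 to 55.9 FPKM for the large and from 15.7 to 40.7 FPKM for the small subunit. The upper end differed more. Mrpl42, a protein added in mitochondria, was the highest member. It had 175, 203 and 173 FPKM in the WT libraries and 165, 170 and 212 FPKM in the Mut libraries, with the groups overlapping. Next in the large subunit came Mrpl23, a protein at the exit of the polypeptide tunnel (101 ± 0.897 FPKM in WT and 97.8 ± 4.27 FPKM in Mut; SD, n = 3 here and below). Mrpl28, Mrpl4, Mrpl36 and Mrpl52 followed with WT means of 93.1, 81.1, 79.8 and 78.1 FPKM. Their order among neighbours is not resolved, since Mrpl52 alone ranged from 69.4 to 88.2 FPKM within WT.

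The highest small subunit gene was Mrps16, a protein with a bacterial counterpart. Its level was 81.0, 85.1 and 75.2 FPKM in WT and 82.5, 80.9 and 93.1 FPKM in Mut. It was followed by Mrps18c (62.1 ± 3.82 FPKM in WT), Mrps21 (53.8 ± 1.52), Mrps15 (52.3 ± 3.11), Mrps28 (48.6 ± 1.51) and Mrps33 (41.4 ± 2.77). At the low end of the large subunit stood Mrpl47 (6.64 ± 0.627 FPKM in WT), Mrpl12 of the stalk that recruits translation factors (8.74 ± 2.32), Mrpl19 (9.76 ± 1.55) and Mrpl1 of the L1 stalk (11.4 ± 1.84). The lowest small subunit genes were Mrps34 (1.90 ± 0.612 FPKM in WT), Mrps25 (8.10 ± 1.21), Mrps26 (9.21 ± 0.869) and Mrps22 (10.5 ± 1.54). The highest and the lowest of the 76 members were 95.1-fold apart on the deposited gene lengths and 46.3-fold apart per kilobase of the principal transcript. The 3 Mrps18 paralogs also differed: over all libraries Mrps18c had 64.6, Mrps18a 21.1 and Mrps18b 12.5 FPKM. Per kilobase of the principal transcript they had 83.0, 52.9 and 12.5, in the same order but with Mrps18a closer to Mrps18c.

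**Figure D1:**
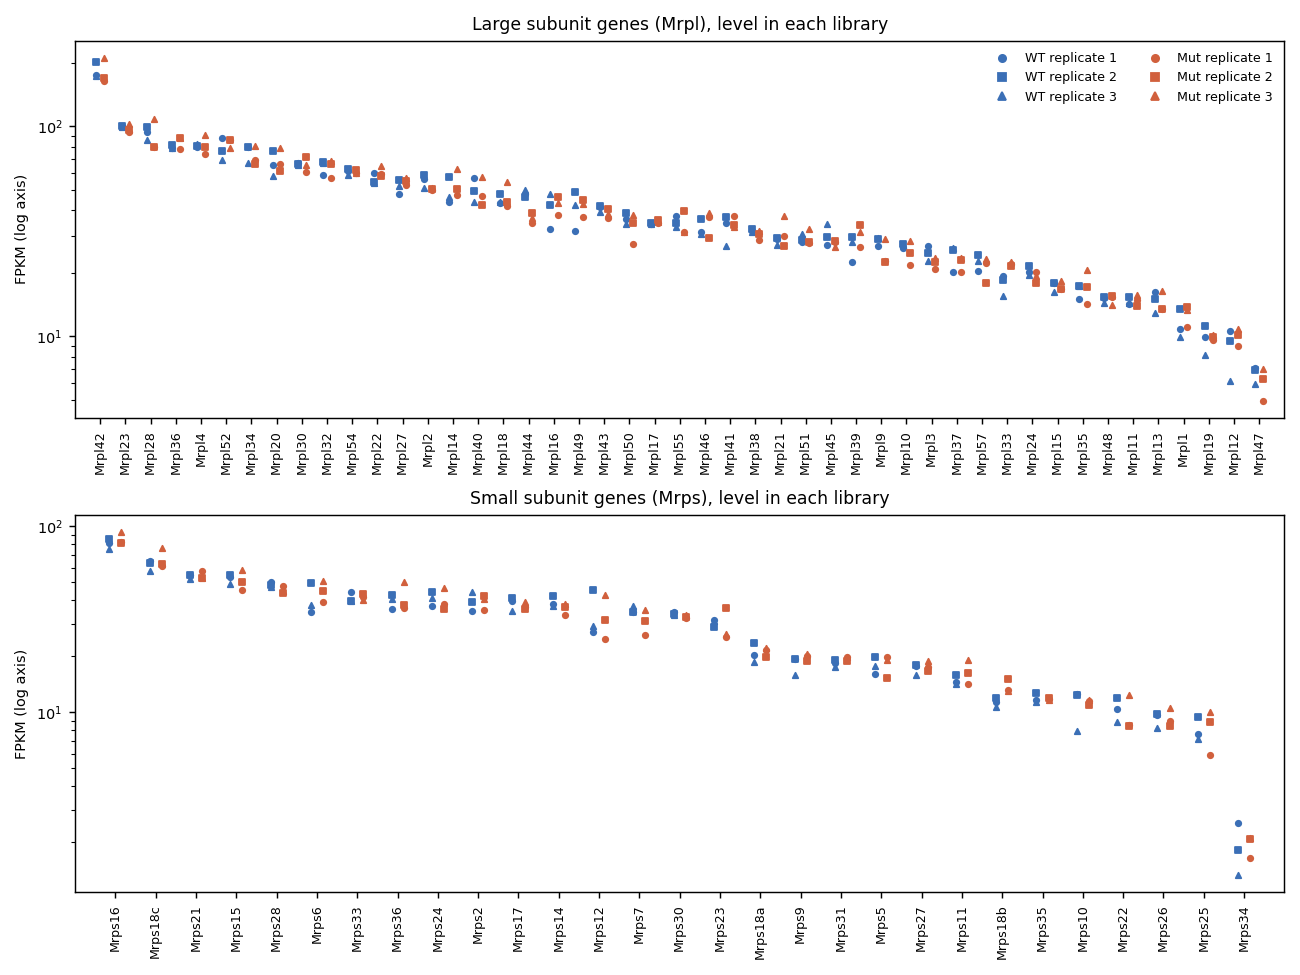
FPKM on a log axis of each of the 47 Mrpl genes (upper panel) and 29 Mrps genes (lower panel), ordered by their mean over all libraries. Each point is 1 library, WT in blue and Mut in orange, and the spread of a gene between libraries is small beside the 95.1-fold range between genes (46.3-fold on principal transcript lengths).

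Set against each other within each library, the 2 subunits kept nearly the same ratio. The mean FPKM of the Mrpl genes was 1.420, 1.403 and 1.432 times that of the Mrps genes in the WT libraries. In the Mut libraries it was 1.400, 1.405 and 1.399 times. The group means were 1.42 ± 0.0145 and 1.40 ± 0.0035, and the groups overlapped. With medians in place of means the ratio was 1.07 in WT and 1.19 in Mut, the Mut value resting on replicate 1, at 1.37 against 1.10 and 1.09 in replicates 2 and 3. Names and assembled subunits differ for a few genes. Mrps30 and Mrps18a sit in the large subunit, and Mrps36 is not a stable ribosomal protein. With these reassigned the ratio was 1.40 in WT and 1.39 in Mut.

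Levels between genes rest on the length each gene was given. The deposited length equalled the longest transcript of GENCODE vM21 in 48 of the 75 members found there and the principal transcript in 36. It was over 2 times the principal transcript in 6 members and shorter than it by over 2 times in 3. Mrpl13 had 14.6 FPKM with a length of 6008 bases. Per kilobase of its principal transcript of 1223 bases it had 71.9, which moved it from rank 65 to rank 13 among members. Mrps10 moved from rank 69 to 25 and Mrps17 from 32 to 5, whereas Mrps16 moved from 4 to 56. Deposited gene coordinates equalled those of GENCODE vM21 in 49 of the 75 members, not in Mrps17 or Mrps16. The principal transcript of Mrps16, of 2572 bases, is longer than its whole deposited gene (20391231 to 20393555 of chromosome 14). Its rank of 56 thus rests on 2 annotations that do not match. On principal lengths the ratio of large to small subunit lay between 1.25 and 1.31 in every library, and the medians of the subunits were 34.6 and 33.3. These values include the members with unequal coordinates.

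Some members overlap other genes, and the sources used here do not say whether counting used strand. 30 members share exon bases with another gene, and 9 share over 20% of them. Those 9 had a median of 12.5 FPKM, against 34.7 FPKM for the other members. Mrps34 (mm10 chromosome 17, 24895116 to 24897502) shares 77.8% of its exon bases with genes such as Mapk8ip3 on the opposite strand. It had the lowest level of all, at 2.55, 1.81 and 1.34 FPKM in WT and 1.65, 2.09 and 2.12 FPKM in Mut. Mrps25 shares 69.8%, with Nr2c2, and Mrpl47 shares 24.2%, with Ndufb5. Mrpl53, outside the count table and thus no member, is listed at 0 FPKM in all 6 libraries, and 88.0% of its 790 exon bases are shared with other genes. Whether reads were left out at such places was not tested.

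In mutant against wild-type HSCs no mitochondrial ribosomal protein gene passed the test, and the differences were small in both subunits. Of 76 members, 0 passed an adjusted p of 0.05 (edgeR quasi-likelihood test, Benjamini-Hochberg over all 14443 genes), where 0.0208% of all genes did (0.00692% higher and 0.0138% lower). Log2 fold changes ran from -0.38 to 0.31, with 41 members higher and 35 lower, against 50.1% higher and 49.9% lower among all genes. The median was 0.01 for all members, -0.00 for the large subunit (23 of 47 higher) and 0.02 for the small subunit (18 of 29 higher), beside 0.00 over all genes tested. The median size of the change was 0.06, against 0.14 over all genes, which were not matched by level (median 33.7 FPKM for members and 9.18 FPKM for all genes tested). Standard errors had a median of 0.13 and were under 0.2 for 72 members. In simulated data edgeR recovered 12% of 1.5-fold changes at the adjusted threshold. The changed genes there were drawn from all genes tested, and edgeR made 120 calls, against 3 in the real data. The 12% is thus not the rate for members, of which small single changes could still be missed. At an unadjusted p under 0.05 there was 1 higher and 1 lower member, 2.63% of them, against a background of 3.99% (2.28% higher and 1.70% lower). In 4 members, or 5.26%, the 3 Mut libraries lay entirely above or below the 3 WT libraries in normalised counts, against 10.3% of all genes. These counts are CPM, scaled by library size and by the TMM factor of each library, not by gene length. 2 of the 4 were higher and 2 lower, where 5.86% and 4.41% of all genes were. In bulk samples, fewer cells of a type and less RNA per cell cannot be told apart.

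Other tests of the same counts gave no member either. DESeq2 called 0 members (0.265% of its genes), and the smallest adjusted p of a member was 0.235. The authors' deposited table also lists 0 members past 0.05, where 0.231% of its genes pass, and its smallest adjusted p of a member is 0.262, for Mrpl44. The signs of the subunit medians depended on single libraries. The median of the large subunit was 0.04 without WT replicate 2, 0.05 without Mut replicate 1 and 0.01 without Mut replicate 2, and it was -0.04 without WT replicate 3 and -0.07 without Mut replicate 3. That of the small subunit was -0.01 without WT replicate 1, -0.03 without WT replicate 3 and -0.03 without Mut replicate 3. It was 0.09 without WT replicate 2 and 0.07 without Mut replicate 1.

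**Figure D2:**
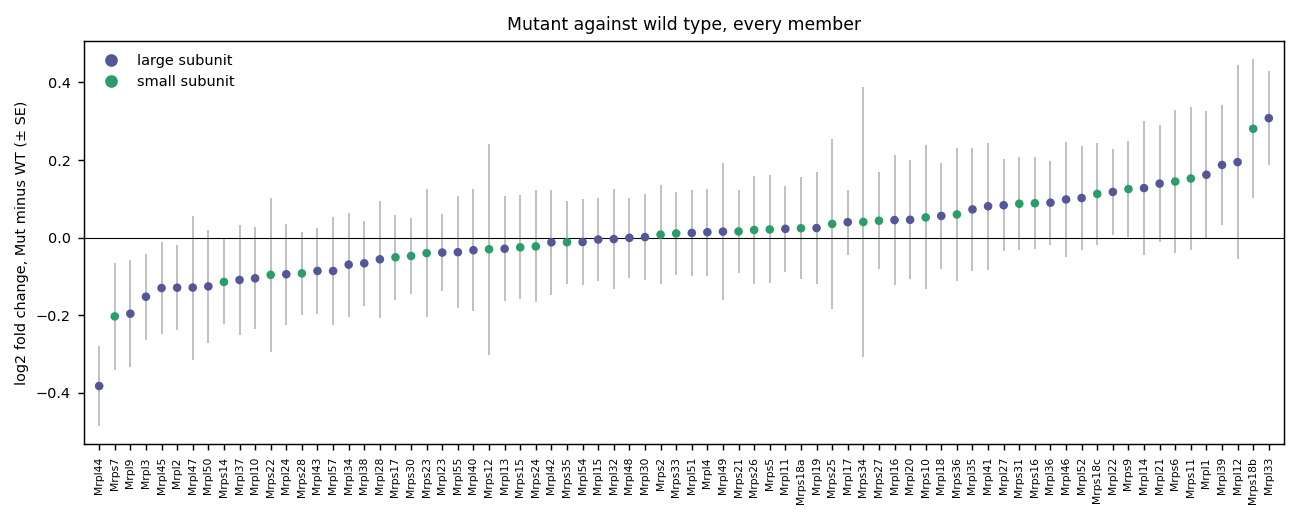
Log2 fold change of Mut minus WT for each of the 76 members in rising order, with the standard error of the edgeR fit as a grey line. Large subunit genes (purple) run from -0.38 to 0.31 and small subunit genes (green) from -0.20 to 0.28, and the 2 are mixed within the latter range.

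Mrpl44 had the smallest unadjusted p of the members and the largest difference. It encodes a protein near the exit of the polypeptide tunnel that has the fold of a double-stranded RNA nuclease. Its level was 47.4, 46.4 and 49.7 FPKM in the WT libraries and 34.8, 38.6 and 36.6 FPKM in the Mut libraries. All Mut libraries lay below all WT libraries, with means of 47.8 ± 1.72 and 36.6 ± 1.89 FPKM. The log2 fold change was -0.38 (SE 0.10; edgeR unadjusted p = 0.00625, adjusted p = 0.999), and it lay between -0.42 and -0.33 under every alternative run. The lowest adjusted p among these alternatives was 0.235, with DESeq2.

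Mrpl44 lies on the chromosome of the mutated gene. It spans 79776018 to 79781445 of mm10 chromosome 1 on the plus strand, and starts 11.40 Mb before Ramp1. Its first bases overlap those of Wdfy1 (79702262 to 79776143, minus strand), a gene of an endosomal protein read in the opposite direction, by 126 bases. Wdfy1 was the 1 gene that rose past the threshold among all genes tested, with 2.92, 2.52 and 2.50 FPKM in WT and 33.1, 31.7 and 25.9 FPKM in Mut (log2 fold change 3.51, SE 0.14; edgeR adjusted p = 1.33e-04). Neither gene's libraries overlapped between groups, and the pair differed in opposite directions. The shared bases are 7.66% of the exon bases of Mrpl44, and their part in its value was not tested. Of the other members on chromosome 1, Mrpl15, Mrpl30, Mrps9 and Mrps14 had log2 fold changes of -0.01, 0.00, 0.13 and -0.11. No member starts within 10 Mb of Ramp1.

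Mrpl33, a small protein of the large subunit, was the member with the highest fold change. It had 19.5, 18.6 and 15.6 FPKM in WT and 22.2, 21.7 and 22.7 FPKM in Mut. Every Mut library was above every WT library, and WT replicate 3 was the lowest of the 6. The log2 fold change was 0.31 (SE 0.12; edgeR unadjusted p = 0.0346, adjusted p = 0.999). It was 0.21 in the lowest of the fits that left out 1 library. The deposited gene starts 17.0 kb before its RefSeq transcript and spans 31596935 to 31701972 of chromosome 5, and whether its count holds reads from outside that transcript was not tested.

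Mrps18b, 1 of the 3 Mrps18 paralogs, was also above WT in every Mut library. Its levels were 11.3, 12.0 and 10.7 FPKM in WT and 13.2, 15.0 and 13.0 FPKM in Mut. The groups did not overlap, and the log2 fold change was 0.28 (SE 0.18; edgeR unadjusted p = 0.158). Its paralogs Mrps18a and Mrps18c had 0.02 (SE 0.13) and 0.11 (SE 0.13), each with overlapping groups. Mrps18b shares 30.5% of its exon bases with other genes such as Gm16279, and Mrps18c shares 23.2%, with Gm43511 for example. The part of the shared bases in these values was not tested. Mrps28, a small subunit protein related to the bacterial protein S1, had lower CPM in every Mut library, but the groups nearly touched. Its lowest WT value was 36.7226 CPM in replicate 3, and its highest Mut value was 36.7222 CPM in replicate 1. In FPKM, which has no TMM factor, its groups overlapped, at 50.3, 48.1 and 47.4 in WT and 47.9, 44.0 and 44.9 in Mut (log2 fold change -0.09, SE 0.11).

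**Figure D3:**
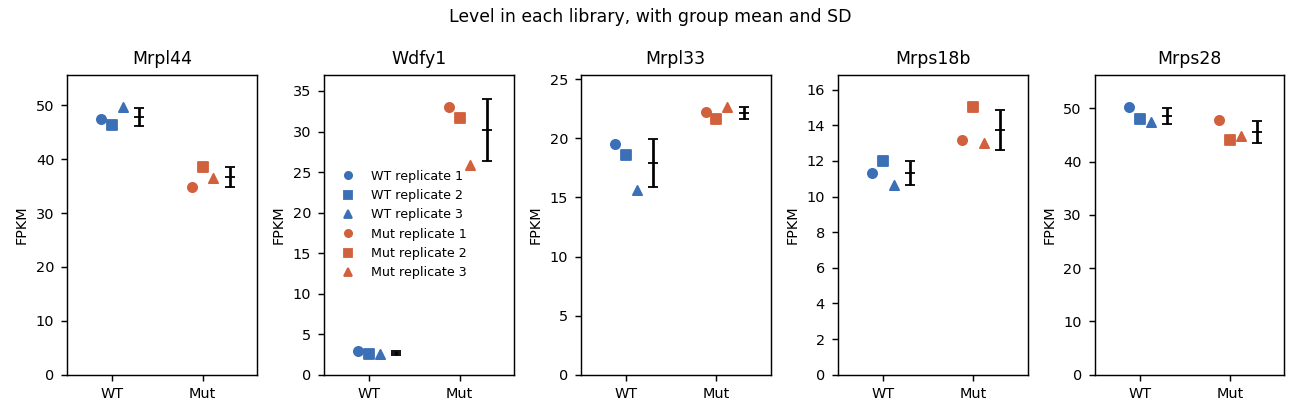
FPKM in each library for the 4 members whose groups did not overlap in CPM and for Wdfy1, the head-to-head neighbour of Mrpl44. Points are single libraries, the bar beside each group is the mean ± SD (n = 3), and axes start at 0. Mrpl44 has 46.4 FPKM or more in WT and 38.6 FPKM or less in Mut, a difference that did not pass the adjusted threshold.

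By position in the ribosome, members went both ways at every site with more than 1 gene. At the exit of the polypeptide tunnel 2 of 7 genes were higher and 5 lower, with a median log2 fold change of -0.09. Other genes here, beside Mrpl44, were Mrpl45, which ties the ribosome to the inner membrane (-0.13, SE 0.12), Mrpl47 (-0.13, SE 0.19), Mrpl24 (-0.09, SE 0.13), Mrpl23 (-0.04, SE 0.10), Mrpl17 (0.04, SE 0.08) and Mrpl22 (0.12, SE 0.11). Around the peptidyl transferase centre, where the peptide bond forms, Mrpl3 and Mrpl2 had -0.15 (SE 0.11) and -0.13 (SE 0.11), while Mrpl16 and Mrpl27 had 0.05 (SE 0.17) and 0.08 (SE 0.12). The central protuberance, which joins the subunits, had 3 of 6 genes higher and a median of 0.03, from -0.07 in Mrpl38 to 0.10 in Mrpl52. On the stalk that binds translation factors, Mrpl12 and Mrpl11 had 0.19 (SE 0.25) and 0.02 (SE 0.11) and Mrpl10 -0.10 (SE 0.13). Mrpl1 of the L1 stalk, which guides the leaving tRNA, had 0.16 (SE 0.16).

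Along the mRNA path of the small subunit, 2 of 5 genes were higher and 3 lower, and the median was -0.02. Mrps7, an assembly-nucleating protein of the subunit head, had 34.8, 34.8 and 37.5 FPKM in WT and 26.2, 31.2 and 35.4 FPKM in Mut. Mut replicate 3 lay within the WT range and the other 2 Mut libraries below it (log2 fold change -0.20, SE 0.14). Mrps11 had 0.15 (SE 0.18), Mrps5 0.02, Mrps24 -0.02 and Mrps12 -0.03. Division by origin gave the same picture. Of the proteins with bacterial counterparts, 17 of 30 in the large and 9 of 16 in the small subunit were higher, with medians of 0.02 and 0.01. Of those added in mitochondria, 6 of 17 in the large and 8 of 12 in the small subunit were higher, with medians of -0.01 and 0.02. Mrpl9 (-0.20, SE 0.14) and Mrpl39 (0.19, SE 0.15) complete the 10 members with the smallest unadjusted p.

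Library medians of the members lay further apart than the group medians, and both subunits were highest in the same 2 libraries. The deviation of each gene from its mean over the 6 libraries was taken in log2 CPM. In the large subunit the library medians were -0.00, 0.09 and -0.06 in WT and -0.11, -0.00 and 0.13 in Mut. In the small subunit they were -0.00, 0.10 and -0.13 in WT and -0.08, -0.02 and 0.12 in Mut. WT replicate 2 and Mut replicate 3 were thus high for both subunits, and WT replicate 3 and Mut replicate 1 low. Over all genes tested the medians stayed between 0.01 and 0.02. WT replicate 2 held 69 of 76 members above their own mean and Mut replicate 3 held 62, against 16 in WT replicate 3 and 13 in Mut replicate 1. Mut replicate 3 was the highest library for 36 members and WT replicate 2 for 22, and neither was the lowest for any.

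Some other lists differed between the same libraries. The 6 mitochondrial ribosome proteins with other names had library medians of 0.12, 0.10 and -0.18 in WT and -0.18, -0.04 and 0.23 in Mut. Nuclear genes of oxidative phosphorylation had -0.05, 0.10 and -0.19 in WT and -0.06, -0.01 and 0.19 in Mut. The 14 cycling markers, from Mki67 to the Mcm helicase genes, had 0.06, 0.26 and 0.13 in WT and -0.32, -0.49 and 0.37 in Mut. Their summed level was 1093 to 1269 FPKM in WT and 827 to 1356 FPKM in Mut. Cycling markers, like the members, were highest in Mut replicate 3 and WT replicate 2, but they were lowest in Mut replicate 2, where the members were near their mean. The 8 neutrophil markers summed to 31.4, 278 and 816 FPKM in WT and 180, 803 and 1132 FPKM in Mut, and Retnlg was at 0 in WT replicate 1. Their order was another, since WT replicate 3, low for the members, was high for neutrophil markers. Erythroid markers had library medians of 0.32, 0.40 and -3.09 in WT and 1.24, 0.15 and 0.34 in Mut. The part of cycling and of other cell types in the library pattern was not tested.

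**Figure D4:**
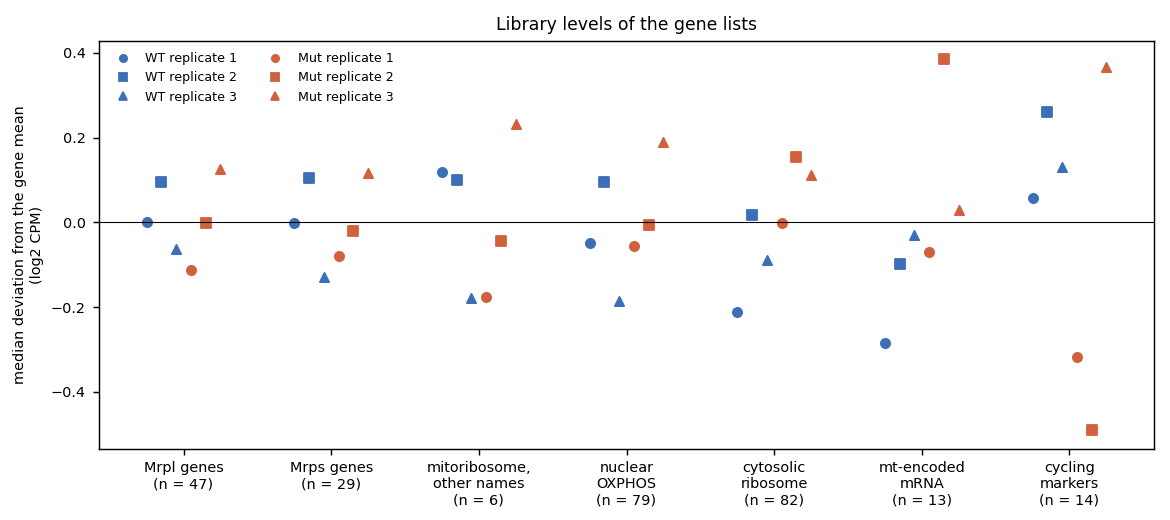
Median deviation of each gene list from the gene means, in log2 CPM, for every library (WT blue, Mut orange; the shape gives the replicate). For Mrpl and Mrps genes WT replicate 2 and Mut replicate 3 are highest, and the genotypes are intermixed. In the cytosolic ribosome list the genotypes overlap too. Its Mut libraries lie at -0.00 to 0.15 and its WT libraries at -0.21 (replicate 1) to 0.02 (replicate 2).

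Members varied little within a group. The median coefficient of variation between replicates was 10.1% in both subunits, compared with 13.1% for the 10530 tested genes in the same FPKM range. Those genes were not matched to the members by level within the range. Mrps12, the decoding protein known as the site of streptomycin resistance in bacteria, varied most, with 28.6%. It had 27.1, 45.3 and 29.1 FPKM in WT and 24.9, 31.5 and 43.0 FPKM in Mut. Again WT replicate 2 and Mut replicate 3 stood above the others, in a larger step than for the members at large. Mrps34 (24.4%), Mrps25 (21.2%) and Mrpl12 (18.9%) came next, all genes of low level.

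The rest of the mitochondrial translation machinery showed no called change either (0 of each list past the threshold in edgeR, and 0 at an unadjusted p under 0.05 in the lists of this paragraph). Of 27 ribosome assembly factors, 8 were higher and 19 lower, with a median log2 fold change of -0.09. Examples are the helicase gene Ddx28 (-0.28, SE 0.15), Fastkd2, which binds the large rRNA (-0.31, SE 0.17), and C1qbp (-0.09, SE 0.15). Of 13 translation factors, 6 were higher, with a median of -0.03; the elongation factor gene Tufm had 0.02 (SE 0.17). Of 17 mitochondrial aminoacyl-tRNA synthetases, 8 were higher, with a median of -0.04. Sars2, whose start lies next to that of Mrps12, had the largest difference there, at -0.46 (SE 0.21). Of the 6 ribosome proteins with other names 3 were higher, among them Chchd1 (60.3 ± 7.79 FPKM in WT and 69.8 ± 10.7 FPKM in Mut), and Dap3 was lower (-0.12, SE 0.11).

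Genes that make or regulate mitochondrial RNA were near 0 as well. Of 10 genes that copy or express mitochondrial DNA, 4 were higher, with a median of -0.01. Slirp, which stabilises mitochondrial mRNAs together with Lrpprc, had the largest difference, at 3.39 ± 0.40 FPKM in WT and 5.64 ± 0.651 FPKM in Mut (log2 fold change 0.73, SE 0.20; edgeR unadjusted p = 0.00736, adjusted p = 0.999). Lrpprc itself had -0.11 (SE 0.10). Of 9 regulators of mitochondrial biogenesis 3 were higher, with a median of -0.06, and Nrf1, Gabpa and Yy1 had -0.17 (SE 0.13), 0.00 (SE 0.14) and 0.14 (SE 0.14). The mRNAs that this machinery translates had another pattern. All 13 mitochondrially encoded mRNAs had higher values in Mut, with a median of 0.29 and 4 of them (30.8%, against 3.99% of all genes) at an unadjusted p under 0.05, mt-Co3 for example at 0.47 (SE 0.15). Their library medians were -0.29, -0.10 and -0.03 in WT and -0.07, 0.39 and 0.03 in Mut, so Mut replicate 2 was high and WT replicate 1 low.

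Cytosolic ribosomal protein genes, which build the other ribosome of the cell, had 78 of 82 tested members higher, with a median of 0.16. The 3 Mut libraries did not overlap WT in 40.2% of them, against 10.3% of all genes and 5.26% of the mitochondrial members. Nuclear oxidative phosphorylation genes had 60 of 79 higher, with a median of 0.09. None of these genes passed the adjusted threshold in edgeR, and an unadjusted p under 0.05 was found for 27 of the 82 (32.9%) and for 4 of the 79 (5.06%). The second share is near the 3.99% of all genes. The mitochondrial members, at a median of 0.01, lay below both lists, and the differences between lists were not tested. 14 of 14 cycling markers had lower values (median -0.22) and 8 of 8 neutrophil markers higher values (median 0.69) beside these lists. Erythroid markers had 4 of 6 higher (median 1.55). B cell markers had 4 of 4 tested higher (median 0.93), at a median level of 0.927 FPKM. Megakaryocyte markers had 5 of 5 lower (median -0.26). The part of cycling and of these cell types was not tested.

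The starts of some members are described next, and any relation of their sequence to the library pattern was not tested. RefSeq windows of 300 bases, from 250 before to 50 after the start (build GRCm38.p6), were found for 67 members, in 73 windows. Those of 5 genes follow, each 5′ to 3′ on the gene's strand and cut to the stretch before the start that holds no annotated exon. Capitals mark the motifs searched, on either strand: GCATGCG (core of the NRF1 site), CCGGAAG (ETS factors such as GABPA), AAGATGG (YY1), ACTACAA (ZNF143) and CCAAT. The NRF1 letters nearly read the same on both strands, so a site can match on both over the same bases. The stretches are those of Mrpl42 (chr10:95501950-95502199, minus strand), the highest member; Mrpl22 (chr11:58171414-58171660, plus strand), with ETS and NRF1 letters; Mrpl52 (chr14:54426659-54426908, plus strand), with YY1 and ETS letters; Mrps12 (chr7:28741822-28741991, minus strand), the most variable member; and Mrpl44 (chr1:79775768-79775959, plus strand), the member with the largest difference, whose stretch lies within Wdfy1.
Mrpl42: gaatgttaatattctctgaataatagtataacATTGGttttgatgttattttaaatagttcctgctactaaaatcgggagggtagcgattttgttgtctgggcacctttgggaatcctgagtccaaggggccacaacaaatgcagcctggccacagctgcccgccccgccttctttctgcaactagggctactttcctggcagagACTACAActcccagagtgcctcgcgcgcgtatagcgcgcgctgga
Mrpl22: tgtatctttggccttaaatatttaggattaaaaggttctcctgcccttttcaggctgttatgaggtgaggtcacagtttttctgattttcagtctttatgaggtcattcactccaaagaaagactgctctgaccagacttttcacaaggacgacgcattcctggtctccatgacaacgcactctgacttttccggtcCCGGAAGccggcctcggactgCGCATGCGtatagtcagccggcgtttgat
Mrpl52: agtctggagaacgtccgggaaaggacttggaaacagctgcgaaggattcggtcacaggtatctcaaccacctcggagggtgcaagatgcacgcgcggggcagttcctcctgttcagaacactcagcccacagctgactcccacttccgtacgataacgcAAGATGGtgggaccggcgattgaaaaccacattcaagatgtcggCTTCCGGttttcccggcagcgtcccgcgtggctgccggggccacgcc
Mrps12: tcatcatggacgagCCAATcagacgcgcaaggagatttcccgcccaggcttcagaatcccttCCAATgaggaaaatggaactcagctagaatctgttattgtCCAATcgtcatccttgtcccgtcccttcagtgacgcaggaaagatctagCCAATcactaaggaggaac
Mrpl44: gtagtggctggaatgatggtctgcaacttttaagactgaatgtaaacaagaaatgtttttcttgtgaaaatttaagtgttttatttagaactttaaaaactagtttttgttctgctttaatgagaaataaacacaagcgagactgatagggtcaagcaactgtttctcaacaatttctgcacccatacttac

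The motifs of nuclear regulators of mitochondrial genes were common in these windows. CCGGAAG was in 24 of 73 member windows (32.9%), against 15.6% of the 13683 windows of protein-coding genes in the count table and 8.86% of all 32851. GCATGCG was in 11.0%, against 5.82% and 3.58%, and AAGATGG in 17.8%, against 6.56% and 6.34%. CCAAT, a general promoter element, was in 39.7%, close to the 37.3% and 37.4% of the other sets. Of 46 large and 27 small subunit windows, GCATGCG was in 7 and 1, and ACTACAA in 5 and 0. The other motifs had the larger share in the small subunit, with CCGGAAG in 28.3% of large and 40.7% of small subunit windows, AAGATGG in 15.2% and 22.2%, and CCAAT in 34.8% and 48.1%. The differences between subunits were not tested. Mrps12 held 4 CCAAT letters in the stretch printed above, and the whole window of Mrpl44 held none of the 5 motifs. These shares describe letters, not bound sites.

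Many members also start next to another gene. In GENCODE vM21, 23 of 75 members (30.7%) have a protein-coding gene on the opposite strand that starts within 1 kb and runs the other way. Over all 21951 protein-coding genes, expressed here or not, the share was 7.94%. It was not taken over expressed genes alone. Examples among the members are Mrpl36 with Ndufs6, a subunit of respiratory complex I, Mrps12 with Sars2, the seryl-tRNA synthetase of mitochondria, and Mrpl49 with Fau, a cytosolic ribosomal protein gene. Others are Mrpl32 with the proteasome gene Psma2, Mrps18b with Ppp1r10, and Mrpl44 with Wdfy1.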

How the data were processed

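RNA-seq of 6 libraries (WT and Mut, 3 each) was analysed. Build mm10 and the tools STAR, HTSeq 0.6.1, CASAVA and DESeq2 appear in the submitters' processing notes, without role or order. The annotation release and the use of strand are not given in the sources used here. The authors deposited raw read counts per gene, FPKM, and their log2 fold changes and p-values. Per the file headers, these stand in the same table with gene coordinates and lengths. Levels are the authors' deposited FPKM; their size-factor-normalized counts, a further deposited signal, were not used.

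Counts were tested with edgeR 4.0.16 (R 4.3.3; TMM, filterByExpr, quasi-likelihood F test, two-sided, Benjamini-Hochberg, threshold 0.05). Standard errors were derived from the fold change and its F statistic. Log2 CPM used a prior count of 2. The gene test was checked on simulated data with the means, library sizes and dispersions of these counts. At the adjusted threshold edgeR recovered 12% of 1.5-fold and 54% of 2-fold changes, and 8.33% of its calls were unchanged genes. DESeq2 recovered 28% and 68%, with 21.9% of its calls unchanged. The changed genes were drawn at random from all genes tested, so these shares are not specific to members. Changes below 1.5-fold were not simulated. Alternatives were other scalings and filters, DESeq2 1.42.0, limma 3.58.1 on log2 FPKM with pseudocounts of 1 and 0.1, a Y-linked covariate, a replicate block and each library left out. Transcript lengths, the overlap filter and the fit without both replicate 1 libraries were chosen after seeing the data. Overlaps and neighbours came from GENCODE vM21, promoter windows from RefSeq (GRCm38.p6). Libraries of a group all differed by more than sampling noise. Depth limits the precision of low members such as Mrps34.

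The members and lists were chosen with earlier results of these data known. Members named were the 10 with the smallest unadjusted p and the 6 highest and 4 lowest by WT FPKM per subunit. Also named were those with non-overlapping groups, the Mrps18 paralogs and members of the sites described. Members starting within 10 Mb of Ramp1 were part of the rule, but no member starts there. Of other lists, up to 4 genes with the smallest p or highest FPKM were named. Mrpl13, Mrps10, Mrps17, Mrps30, Mrps36, Mrpl53, the members on chromosome 1, Wdfy1, Gabpa, Retnlg and the promoter and neighbour examples fall outside that rule; they were picked with their values in view.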

Additional observations from a re-analysis of the deposited data

How the results depend on the processing

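No member passed the threshold under any of the 16 alternatives. The 11 members with the smallest unadjusted p or with non-overlapping groups kept their direction in all of them. Those 11 were picked from the same libraries, so their kept direction is no independent support. Over all genes, 1 was higher and 2 lower in edgeR. The higher count was 2 with no filter, with a CPM of at least 1 in 3 libraries and with limma at either pseudocount, and 21 with DESeq2. The lower count was 23 with DESeq2 and 1 with limma at a pseudocount of 0.1, with the Y-linked covariate, with the replicate block and without both replicate 1 libraries. Leaving out 1 library gave 1 to 2 higher and 1 to 4 lower genes.

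The ratio of large to small subunit was 1.07 in WT and 1.19 in Mut with medians, 1.40 and 1.39 by assembled subunit, and 1.28 and 1.26 on principal transcript lengths. Without members sharing over 20% of exon bases it was 1.39 in WT and 1.39 in Mut. Leaving out 1 library gave 1.41 to 1.43 in WT and 1.40 to 1.40 in Mut. The median of the large subunit ranged from -0.07 to 0.05 and that of the small subunit from -0.03 to 0.09 in such fits. The cause of the shifts with gene length was not tested.

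Same-numbered libraries did not deviate together (correlations 0.14, 0.00 and -0.09), so the numbers were not taken as pairs. With the replicate block 0 members passed, and the medians were -0.00 for the large and 0.02 for the small subunit. Depth limits mainly Mrps34, with 59 reads in its lowest library.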
